A study of Mus musculus with 8 samples.

Results

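The genes of the TGF-β, Nodal and BMP pathways were followed from ESCs to NPCs in RNA-seq counts. They were taken by symbol alone: the ligands (*Tgfb*, *Inha* and *Inhb*, *Nodal*, *Bmp* and *Gdf* symbols), the receptors (*Acvr*, *Bmpr*, *Tgfbr*), the *Smad* genes, *Id1* to *Id4*, and the secreted inhibitors *Lefty1*, *Lefty2*, *Nog*, *Chrd* and *Fst*. This rule selected 59 of the 26263 genes in the count files. The rule uses no measured value, but it was written with earlier results of these data known. The ESCs were hybrid mouse lines, BJE2 for the cross B/J (genotype C57BL/6 x JF1) and JBE6 for the reciprocal cross J/B (genotype JF1 x C57BL/6), each a male line derived from a blastocyst. They were kept on gelatin in a medium with LIF, BMP4 and an inhibitor of GSK3-β. The NPCs were the same lines at day 12 of *in vitro* corticogenesis, for which the cells were plated on Matrigel in a defined medium with B27 lacking vitamin A and with dorsomorphin homolog 1, an inhibitor of BMP type I receptors. Each stage and cross had 2 libraries of poly(A) RNA. A cross was 1 line, so the cross and the line cannot be told apart. The stage of the cells and their exposure to BMP4, to the BMP receptor inhibitor and to the matrix also changed together and cannot be told apart.

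In this superfamily, a dimeric ligand brings together type II and type I receptor kinases, and the type I receptor phosphorylates receptor-regulated Smads. Ligands of the TGF-β, activin and Nodal type act mainly through Smad2 and Smad3, and BMPs and many GDFs through Smad1, Smad5 and Smad9. These Smads enter the nucleus with Smad4, while Smad6 and Smad7 inhibit the pathway, and the *Id* genes are known early targets of BMP signals. In mouse ESC culture, BMP4 together with LIF is known to hold back neural differentiation, and blocking BMP and Nodal signals is a known route to neural tissue.

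Each library had 22537138 to 32706015 reads on genes, with TMM factors of 0.820 to 1.21, so that 1 read stood for 0.0256 to 0.0533 normalised CPM. The labels do not say whether replicates came from separate cultures, so p-values measure only the spread between these libraries, which may be technical. A pair of library kits and a pair of sequencers are named for the series without saying which library had which. All 10 pluripotency markers were lower in NPCs (summed level 195 to 439.5 normalised CPM against 5584 to 8577 in ESCs), and 9 of 10 neural precursor markers were higher (344 to 974.7 against 61.6 to 135). The neuron list had 9 of 10 genes higher and 1 lower, but its summed level overlapped between the stages (345.8 to 1817 against 326 to 467), with NPC B/J replicate 1 within the ESC range. The NPC libraries also held other cell types' markers. Of the trophoblast list, 9 of 10 genes were higher (1098 to 3205 against 62.6 to 201), with *Tpbpa* and *Prl3d1* at 0 counts in every ESC library and *Tpbpa* at 141 to 395 normalised CPM in NPCs. The fibroblast list also had 9 of 10 genes higher (799.5 to 1946 against 13.1 to 86.8). In the endothelium list, 3 genes were higher and 3 lower (245 to 831 against 51.2 to 130.3). Of 8 tested endoderm genes, 5 were higher and 1 lower (68.7 to 128 against 15.6 to 24.8). Of 9 tested mesoderm genes 3 were higher and 3 lower, and of 10 genes of the dorsal midline and choroid plexus 7 and 1. The summed levels of these last lists overlapped between the stages, at 29.4 to 184 against 12.4 to 108 for mesoderm and 55.0 to 217 against 60.4 to 123 for the dorsal midline. The part of these cells in the changes of the pathway genes was not tested, and in these bulk samples fewer cells of a type and less RNA per cell cannot be told apart.

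The pathway was not moved as a block. The Nodal side, *Nodal*, *Gdf3*, *Lefty1* and *Lefty2*, and *Bmp4* fell to NPCs, while most other ligands, all 4 type II receptors and 5 of 6 tested type I receptors rose, and the *Id* genes split, with *Id1* and *Id3* lower and *Id4* higher. Enough reads for a test were found for 53 of the 59 genes. By edgeR's quasi-likelihood test, 44 of these 53 differed between the stages (83.0%), 34 higher and 10 lower in NPCs. Among all 16399 genes tested, 69.4% differed, 37.5% higher and 31.9% lower. The median log2 fold change was 1.45 for the 53 pathway genes and 0.17 for all genes. The groups of 4 libraries did not overlap for 42 of the 53 genes (79.2%), against 66.5% of all genes tested. The 10 lower genes were *Nodal*, *Gdf3*, *Lefty1*, *Lefty2*, *Bmp4*, *Inhbc*, *Gdf15*, *Smad7*, *Id1* and *Id3*. The 9 genes that did not pass were *Tgfb1*, *Gdf9*, *Bmp8a*, *Gdf5*, *Fst*, *Acvr1b*, *Smad2*, *Smad9* and *Id2*. A mean of at least 1 normalised CPM was reached by 33 of the 59 genes in ESCs and by 49 in NPCs.

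**Figure D1:**
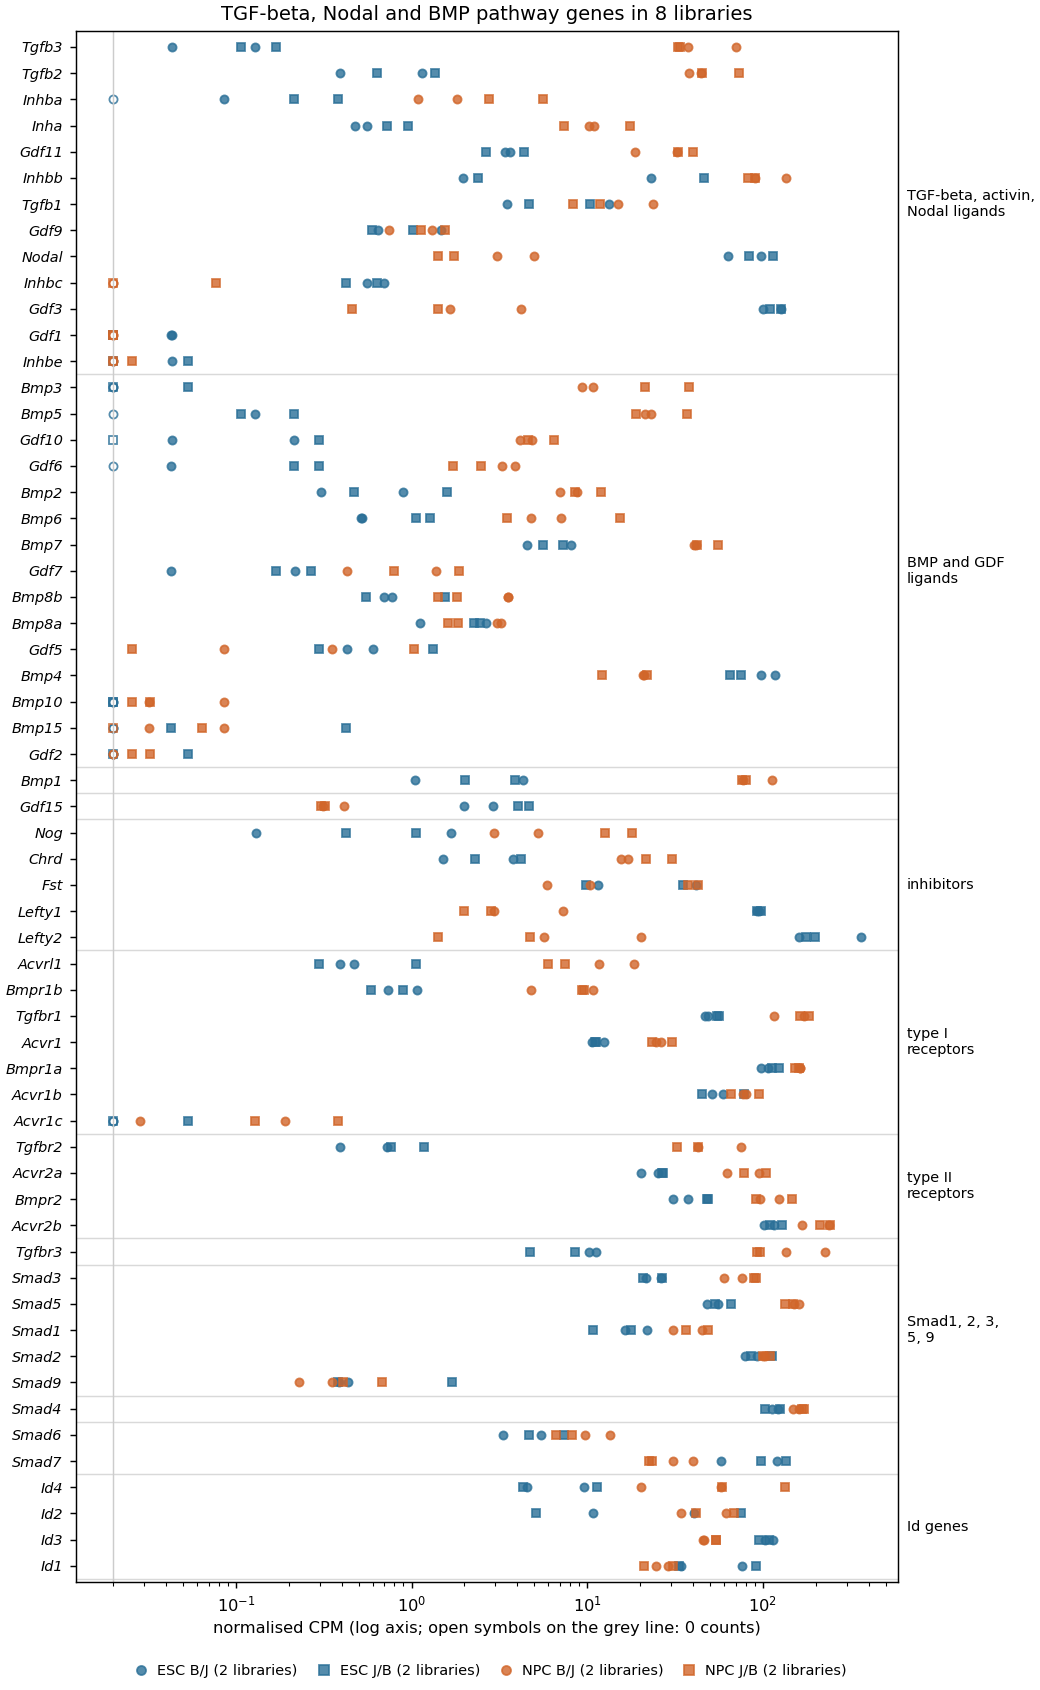
Normalised CPM (log axis) of every pathway gene in each of the 8 libraries, ordered by role, with circles for B/J, squares for J/B, blue for ESCs and orange for NPCs, and open symbols on the grey line for 0 counts. Symbols should be compared along a row, since the values are not divided by gene length. Most rows have the orange symbols to the right, and *Nodal*, *Gdf3*, *Lefty1*, *Lefty2* and *Bmp4* have them to the left.

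**Figure D2:**
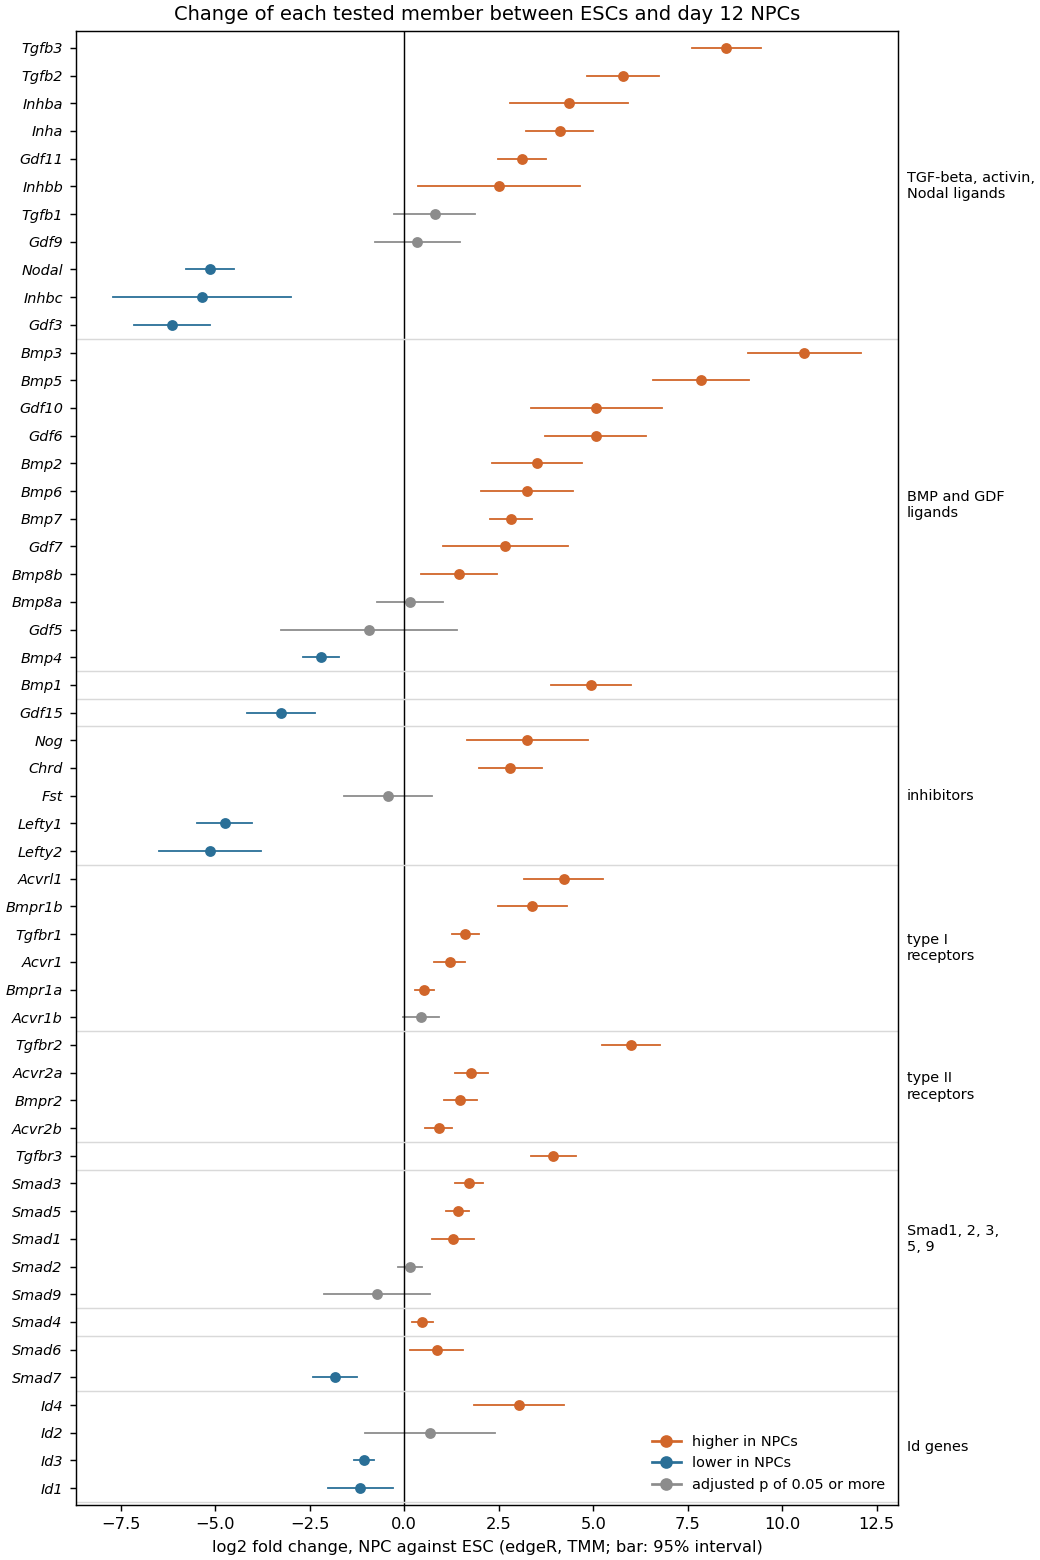
Log2 fold change between NPCs and ESCs (points) with its 95% interval (bars) for the 53 tested genes, by role. Orange marks the 34 genes that were higher, blue the 10 that were lower and grey the 9 with an adjusted p of 0.05 or more.

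Among the 13 ligands of the TGF-β, activin and Nodal type, 11 were tested, of which 6 were higher in NPCs, 3 lower and 2 did not pass. *Nodal* (GRCm39 chr10:61253587-61261117, plus strand), the ligand that patterns the early embryo and is produced by pluripotent cells, was read at 97.7 and 63.3 normalised CPM in replicates 1 and 2 of the B/J ESCs and at 114 and 83.7 in the J/B ESCs. In NPCs it was read at 3.08 and 5.01 in B/J and at 1.74 and 1.42 in J/B. Every ESC library lay above every NPC library, and the level fell by 5.14 on the log2 scale (standard error, SE, 0.27, adjusted p = 1.31e-05), which is 35.2-fold. *Gdf3*, a Nodal-related ligand of pluripotent cells, was read at 126 and 99.7 in B/J ESCs and at 109.5 and 127 in J/B ESCs, but at 1.65 and 4.18 in B/J NPCs and 0.460 and 1.42 in J/B NPCs. Its log2 fold change of -6.14 (SE 0.44, adjusted p = 2.91e-05) was the most negative of the 53. The Lefty antagonists were lower as well. *Lefty1*, a secreted inhibitor that Nodal signals induce, stood at 92.9 and 95.4 in B/J ESCs and 97.01 and 92.0 in J/B ESCs, and at 2.93 and 7.31 in B/J NPCs and 1.995 and 2.84 in J/B NPCs. *Lefty2*, its neighbour on chromosome 1 (GRCm39 chr1:180720635-180726932, with *Lefty1* at chr1:180762587-180765971), stood at 160.3 and 361 in B/J ESCs and 176 and 198 in J/B ESCs, and at 5.64 and 20.3 in B/J NPCs and 1.41 and 4.75 in J/B NPCs. The ESC libraries were all above the NPC libraries for both genes, with log2 fold changes of -4.75 (SE 0.31, adjusted p = 2.37e-05) for *Lefty1* and -5.14 (SE 0.58, adjusted p = 1.67e-04) for *Lefty2*, which was -5.74 without NPC B/J replicate 2. The transcripts of both genes are 91.2% identical over 1175 aligned bases, with a longest identical run of 140 bases, so how the counting shared reads between them is uncertain.

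**Figure D3:**
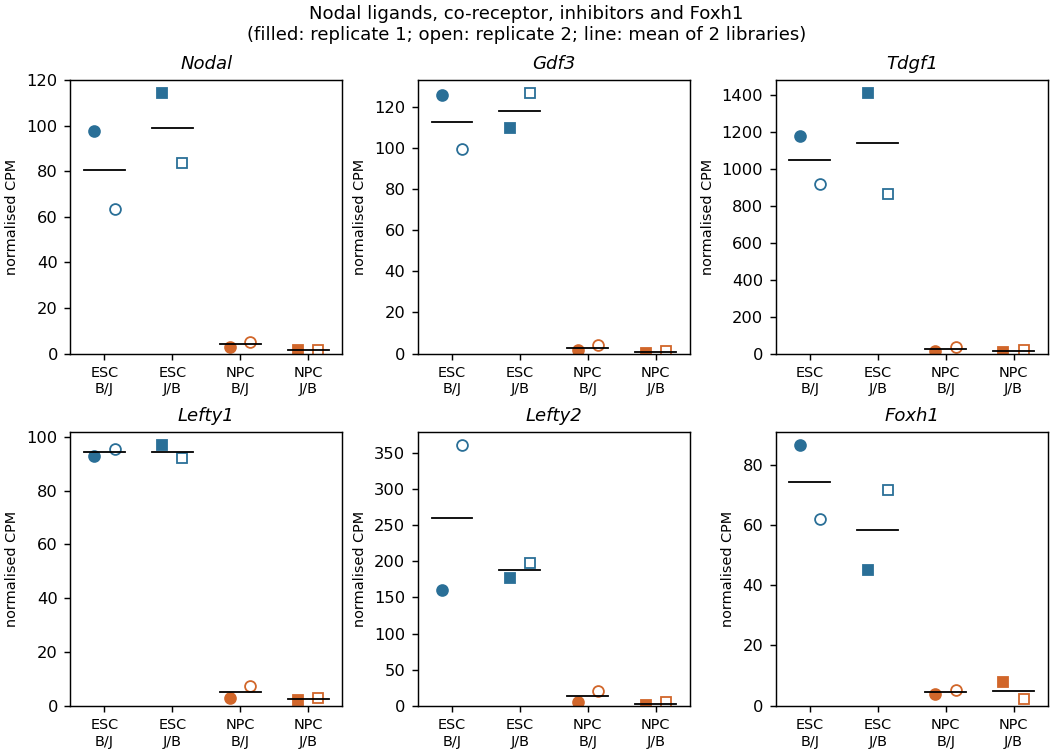
Normalised CPM of *Nodal*, *Gdf3*, *Tdgf1*, *Lefty1*, *Lefty2* and *Foxh1* in each library (filled: replicate 1, open: replicate 2) with the mean of 2 libraries as a line. All ESC symbols lie above all NPC symbols in every panel, and *Lefty1* spans only 92.0 to 97.01 in ESCs while *Lefty2* spans 160.3 to 361.

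Per kb of exon, the mean ESC levels of these 4 genes, in normalised CPM per kb (± SD, n = 4), were 76.9 ± 31.8 for *Lefty2*, 53.5 ± 1.31 for *Lefty1*, 44.1 ± 5.04 for *Gdf3* and 41.0 ± 9.90 for *Nodal*, and *Gdf3* and *Nodal* did not differ beyond their spread. Summed per kb, the 4 genes went from 200.4 to 245 in the ESC libraries to 2.58 to 15.0 in the NPC libraries. In NPCs all 4 were highest in B/J replicate 2, the NPC library that also had the highest summed level of the pluripotency markers (439.5 against 195 to 287 in the other NPC libraries). The part of pluripotent cells in that library's values was not tested.

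Most other ligands of the TGF-β, activin and Nodal type went the other way, except *Inhbc*, which was lower, and *Tgfb1* and *Gdf9*, which did not pass. *Tgfb3*, which acts through the TGF-β receptors and is known in epithelial fusion and mesenchyme, was nearly absent from ESCs (0.0434 and 0.128 normalised CPM in B/J, 0.107 and 0.170 in J/B) and was read at 69.9 and 37.2 in B/J NPCs and at 33.6 and 33.0 in J/B NPCs. This is a log2 fold change of 8.52 (SE 0.39, adjusted p = 9.31e-06). *Tgfb2*, a ligand of the same type expressed in many embryonic tissues, went from 0.391 and 1.15 in B/J and from 0.640 and 1.36 in J/B to 37.8 and 44.6 in B/J and to 44.7 and 73.1 in J/B, a log2 fold change of 5.79 (SE 0.41, adjusted p = 2.91e-05). *Inhba*, which encodes the subunit of activin A, was low in both stages, at 0 and 0.0855 in B/J ESCs, 0.213 and 0.384 in J/B ESCs, 1.08 and 1.82 in B/J NPCs and 2.76 and 5.62 in J/B NPCs. Its log2 fold change was 4.36 (SE 0.67, adjusted p = 7.57e-04), with no overlap between the stages, and 6.09 without ESC B/J replicate 2. Also higher were *Inha*, the inhibin α subunit (log2 fold change 4.11), and *Gdf11* (3.11), a ligand known in patterning of the trunk. *Inhbc* had 51 counts in ESCs and 3 in NPCs in all, a ratio of 0.0382 (95% exact interval 0.00763 to 0.118), and all 3 were in NPC J/B replicate 1. *Gdf9*, known from the oocyte, was near 1 normalised CPM in both stages.

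*Tgfb1* and *Inhbb* were chosen for description after their values were seen, because the replicates of a group differed by more than the stages did. *Tgfb1*, the founding TGF-β, was at 3.52 and 4.64 in replicate 1 and at 13.4 and 10.4 in replicate 2 of the B/J and J/B ESCs, and at 23.8 and 15.0 in B/J NPCs and 11.8 and 8.33 in J/B NPCs. The stages overlapped, and the log2 fold change of 0.81 (SE 0.46, adjusted p = 0.150) did not pass. On library totals instead of TMM factors it passed at 1.27 (adjusted p = 0.0445), and without ESC B/J replicate 2 at 1.44 (adjusted p = 0.0205). *Inhbb*, the subunit of activin B, was read at 23.1 and 46.0 in replicate 1 and at 1.97 and 2.39 in replicate 2 of the same ESCs, an 11.7-fold and a 19.3-fold difference between replicates of a group. All NPC libraries were above these, at 135 and 89.8 in B/J and at 90.5 and 81.7 in J/B. The log2 fold change was 2.50 (SE 0.92, adjusted p = 0.0405), which was 3.85 and 4.17 without replicate 1 of the B/J and J/B ESCs, and it lost the call without any of 5 libraries (adjusted p 0.0597 to 0.0844). Summed per kb, *Tgfb1*, *Tgfb2* and *Tgfb3* stood at 0.762 to 2.84 in ESC libraries and at 15.9 to 24.1 in NPC libraries.

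Of the 15 ligands of the BMP and GDF type, 12 were tested, of which 9 were higher in NPCs, only *Bmp4* was lower, and 2 did not pass. *Bmp4* (GRCm39 chr14:46620250-46636745, minus strand), the ligand that was also added to the ESC medium as protein, was read at 117 and 97.3 normalised CPM in B/J ESCs and 74.6 and 64.8 in J/B ESCs. In NPCs it was read at 20.8 and 21.1 in B/J and at 12.2 and 21.8 in J/B. The stages did not overlap, and the level fell by 2.19 on the log2 scale (SE 0.21, adjusted p = 7.36e-05), 4.57-fold. *Bmp3*, an atypical member known to oppose BMP activity in bone, had 1 count over the 4 ESC libraries and 2810 over the 4 NPC libraries, a ratio of 1825 (95% exact interval 327 to 72109, adjusted p = 2.91e-05), with the ESC count in J/B replicate 1. Its NPC levels were 10.7 and 9.32 in B/J, with 37.9 and 21.3 in J/B, so that the J/B libraries were both above the B/J libraries. *Bmp5*, known from skeletal and dorsal neural development, rose from 0 and 0.128 in B/J and from 0.107 and 0.213 in J/B to 23.2 and 21.4 in B/J and to 19.0 and 36.9 in J/B (log2 fold change 7.85, SE 0.54, adjusted p = 2.70e-05). *Gdf10*, also called BMP3B, went from 0.0434 and 0.214 in B/J and from 0 and 0.298 in J/B to 4.84 and 4.12 in B/J and to 4.63 and 6.43 in J/B (log2 fold change 5.08, SE 0.75, adjusted p = 6.09e-04). The size of the change depended on single libraries, with *Bmp5* at 9.85 without ESC B/J replicate 2, and *Gdf10* at 5.82 without that library and 7.70 without ESC J/B replicate 2. These 3 genes had 0 counts in at least 1 ESC library and were read in every NPC library.

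The other higher ligands of this type were *Bmp2*, *Bmp6*, *Bmp7*, *Bmp8b*, *Gdf6* and *Gdf7*, with log2 fold changes of 1.45 (*Bmp8b*) to 5.06 (*Gdf6*). Leaving out 1 library moved *Gdf6* to 6.36 (ESC B/J replicate 2), *Bmp6* from 3.25 to 2.54 (NPC J/B replicate 2) and *Gdf7* from 2.67 to 3.43 (ESC B/J replicate 1). *Bmp7*, a widely expressed BMP named here after its values were seen, had the highest NPC level of the group per kb of exon (10.2 normalised CPM per kb, against 1.44 in ESCs) and a log2 fold change of 2.82. *Bmp4* therefore made up 81.9 to 92.5% of the summed per-kb level of the *Bmp* ligands in the ESC libraries and 9.30 to 16.5% in the NPC libraries, while the sum itself was 14.6 to 24.1 in ESCs and 24.3 to 35.8 in NPCs. *Bmp8b* (adjusted p = 0.0174) lost the call without ESC B/J replicate 1 (adjusted p = 0.0564) or NPC J/B replicate 2 (adjusted p = 0.0514), and within J/B alone it did not pass (0.62, adjusted p = 0.403). *Bmp8a* (0.15) and *Gdf5* (-0.93) did not pass, but without NPC J/B replicate 2 *Gdf5* did (-2.996, adjusted p = 0.0447). *Bmp8a* and *Bmp8b* transcripts are 81.3% identical over 1888 aligned bases, so their separate counts are uncertain. *Bmp1*, which despite its name is a protease that processes procollagen and releases BMPs from chordin, went from 1.04 and 4.32 in B/J and from 2.03 and 3.88 in J/B to 113 and 77.4 in B/J and to 76.2 and 80.2 in J/B (log2 fold change 4.93, SE 0.45, adjusted p = 7.06e-05, and 5.61 without ESC B/J replicate 2). *Gdf15*, a distant member known as a stress-induced hormone, was the reverse, at 1.996 and 2.91 in B/J ESCs, 4.69 and 4.05 in J/B ESCs and 0.307 to 0.415 in NPCs (log2 fold change -3.26, SE 0.39, adjusted p = 1.99e-04).

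The genes left untested were *Acvr1c*, *Bmp10*, *Bmp15*, *Gdf1*, *Gdf2* and *Inhbe*. *Acvr1c*, a type I receptor for Nodal, had 1 count in ESCs and 26 in NPCs, a ratio of 16.9 (95% exact interval 2.77 to 692). *Bmp10* had 0 counts in ESCs and 6 in NPCs, at least 1.299-fold higher in NPCs when 3 counts over the ESC libraries are taken as the limit. *Bmp15*, known from the oocyte, was at 0 to 0.427 normalised CPM in ESC libraries and at 0 to 0.0854 in NPC libraries. *Gdf1*, *Gdf2* and *Inhbe* had at most 2 counts in either stage. *Gdf1* shares exons on the same strand with *Cers1*, so reads of *Gdf1* may have been left out as shared between genes, and its level is uncertain.

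The secreted inhibitors did not move together. Of the 5, 2 were higher in NPCs, 2 lower and 1 did not pass. The Lefty pair fell, as given above, whereas the BMP antagonists *Nog* and *Chrd* rose. *Nog*, which encodes noggin, was at 0.130 and 1.67 normalised CPM in B/J ESCs, 0.427 and 1.07 in J/B ESCs, 2.96 and 5.27 in B/J NPCs and 17.9 and 12.6 in J/B NPCs. *Chrd*, which encodes chordin, was at 1.52 and 3.76, 2.29 and 4.22, 17.1 and 15.5, and 30.2 and 21.7 in the same order. Neither overlapped between the stages, and the log2 fold changes were 3.26 for *Nog* (SE 0.69, adjusted p = 0.00365, and 4.63 without ESC B/J replicate 2) and 2.81 for *Chrd* (SE 0.36, adjusted p = 3.00e-04). *Fst* encodes follistatin, which binds activins, and it did not follow the stage. It was read at 11.5 and 41.4 in B/J ESCs, 9.87 and 34.9 in J/B ESCs, 5.90 and 10.3 in B/J NPCs and 43.0 and 37.2 in J/B NPCs. Replicate 2 was 3.60-fold and 3.53-fold above replicate 1 in the ESC groups, and the J/B NPC libraries were both above the B/J NPC libraries. The log2 fold change of *Fst* was -0.43 (SE 0.50, adjusted p = 0.456), and its sign turned on library totals (0.03) and without replicate 2 of either ESC group (0.17 each).

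Receptors were almost all higher in NPCs. Per kb of exon, the type I receptors at the highest ESC levels were *Bmpr1a* (14.2 normalised CPM per kb), *Acvr1b* (12.3) and *Tgfbr1* (7.80), which serve BMPs, activin with Nodal, and TGF-β. In NPCs the order was *Tgfbr1* (23.8 ± 4.43, SD, n = 4), *Bmpr1a* (20.5 ± 0.649) and *Acvr1b* (16.7 ± 2.52), of which *Bmpr1a* lay within the spread of *Tgfbr1*. *Tgfbr1* was read at 49.0 and 46.8 normalised CPM in B/J ESCs, 54.6 and 56.2 in J/B ESCs, 116 and 170.3 in B/J NPCs and 183 and 162 in J/B NPCs. It rose by 1.61 on the log2 scale (SE 0.15, adjusted p = 7.56e-05). *Acvr1*, the BMP type I receptor known as ALK2 and a known target of dorsomorphin-type inhibitors, was at 12.5 and 10.6 in B/J ESCs, 11.3 and 11.0 in J/B ESCs, 26.3 and 24.7 in B/J NPCs and 23.5 and 30.5 in J/B NPCs. Its stages did not overlap (log2 fold change 1.21, SE 0.18, adjusted p = 5.71e-04).

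A lower group of type I receptors changed by more. *Acvrl1*, known as ALK1 and best known from endothelium, went from 0.391 and 0.470 in B/J and from 1.07 and 0.298 in J/B to 18.4 and 11.7 in B/J and to 5.99 and 7.43 in J/B (log2 fold change 4.21, SE 0.45, adjusted p = 1.28e-04). *Bmpr1b*, a BMP receptor known in cartilage and neural tissue, went from 0.738 and 1.07 in B/J and from 0.587 and 0.895 in J/B to 4.78 and 10.8 in B/J and to 9.36 and 9.59 in J/B (3.38, SE 0.39, adjusted p = 1.85e-04). Both were above every ESC library in all 4 NPC libraries. *Bmpr1a* passed with a small change (0.53, adjusted p = 0.00327) and *Acvr1b* did not (0.44, adjusted p = 0.0905), although *Acvr1b* was at 0.92 on library totals (adjusted p = 0.00419) and at 0.66 without ESC J/B replicate 1 (adjusted p = 0.0157).

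All 4 type II receptors were higher. *Tgfbr2*, the type II receptor that binds TGF-β, was at 0.391 and 0.727 in B/J ESCs and 1.17 and 0.767 in J/B ESCs, and at 75.3 and 42.9 in B/J NPCs and 32.6 and 42.8 in J/B NPCs. With a log2 fold change of 6.00 (SE 0.34, adjusted p = 1.53e-05), it had the largest change among the receptors. *Acvr2a*, which binds activins and BMPs, was at 20.2 and 25.1, 27.0 and 26.6, 62.2 and 94.6, and 78.1 and 104 in the same order (1.78, SE 0.19, adjusted p = 1.23e-04). *Bmpr2*, the BMP type II receptor, was at 30.8 and 37.5, 48.8 and 48.2, 95.6 and 124, and 90.9 and 146 (1.48, SE 0.19, adjusted p = 2.80e-04). *Acvr2b* had the smallest of these 4 changes, 0.91 (adjusted p = 0.00111), and the highest per-kb level in both stages, 10.2 in ESCs and 19.2 in NPCs, against 0.0869 and 5.50 for *Tgfbr2*. The co-receptor *Tgfbr3*, or betaglycan, which presents TGF-β to *Tgfbr2*, went from 10.3 and 11.2 in B/J and from 4.75 and 8.48 in J/B to 225 and 135 in B/J and to 92.9 and 95.8 in J/B (3.95, SE 0.25, adjusted p = 2.10e-05).

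*Tgfb3*, *Tgfbr2*, *Tgfbr3*, *Acvrl1* and *Bmp1* were each highest in the same NPC library, B/J replicate 1. That library also had the highest summed trophoblast (3205 against 1098 to 1641 normalised CPM), fibroblast (1946 against 799.5 to 1914) and endothelium (831 against 245 to 435) marker levels of the NPC libraries and the lowest of neural precursors (344 against 643 to 974.7). In all, 13 of the 53 tested genes were highest among NPC libraries there (24.5%), against 34.0% of all genes tested. The part of these cells in the 5 genes' values was not tested. In the other 3 NPC libraries the 5 genes were still above every ESC library.

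**Figure D4:**
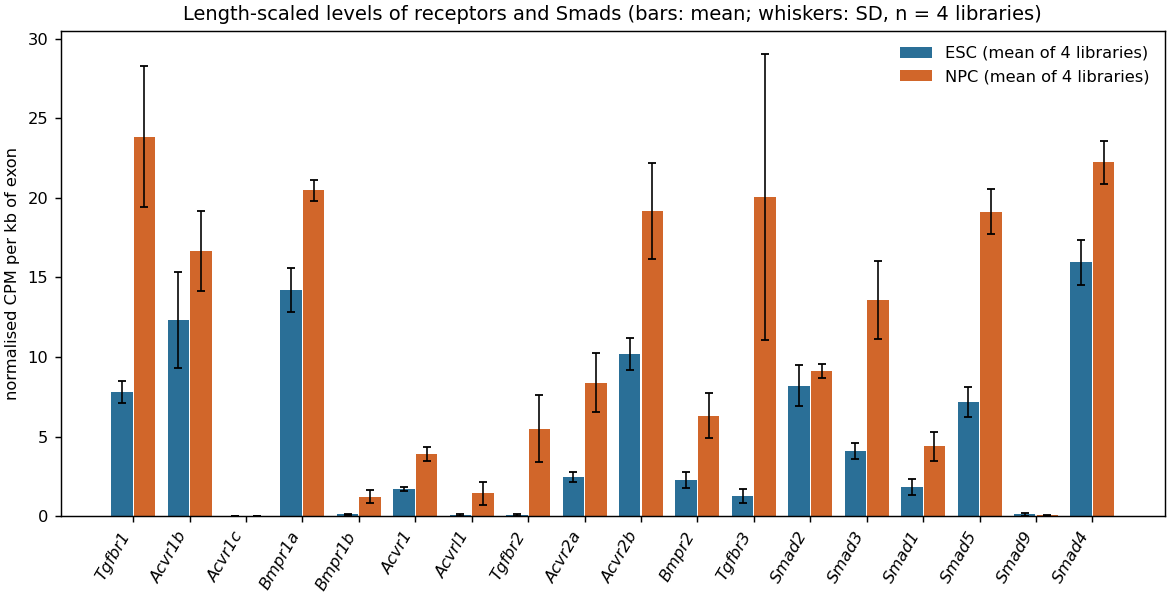
Mean level per kb of exon (normalised CPM per kb) of receptors and Smads in 4 ESC and 4 NPC libraries (bars from 0, whiskers 1 SD). *Tgfbr2* rises from 0.0869 to 5.50 and stays below *Acvr2b* in both stages, and *Smad2* has nearly equal bars.

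Of the 5 receptor-regulated Smads, 3 were higher in NPCs and 2 did not pass. *Smad3*, which carries TGF-β, activin and Nodal signals, was at 21.5 and 26.3 in B/J ESCs, 20.9 and 26.5 in J/B ESCs, 60.01 and 75.5 in B/J NPCs and 91.3 and 88.4 in J/B NPCs. Its partner *Smad2* was at 78.8 to 113 in ESCs and 99.6 to 109.7 in NPCs. *Smad3* rose by 1.71 on the log2 scale (SE 0.16, adjusted p = 6.79e-05), while the 95% interval of *Smad2* (estimate 0.16, adjusted p = 0.318) ran from -0.16 to 0.48, although on library totals *Smad2* was at 0.64 (adjusted p = 0.00291). The merged exons of *Smad2* span 11250 bases and its canonical transcript 1645 bases, so its per-kb level depends on the length used and was not ranked against *Smad3*.

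On the BMP side, *Smad5* was at 55.4 and 48.0 in B/J ESCs, 65.6 and 53.1 in J/B ESCs, 160.4 and 149.8 in B/J NPCs and 133 and 147 in J/B NPCs (log2 fold change 1.41, SE 0.13, adjusted p = 6.78e-05). *Smad1* was at 16.4 and 22.0, 10.8 and 17.6, 30.6 and 45.3, and 36.6 and 48.9 in the same order (1.28, SE 0.24, adjusted p = 0.00191). The stages did not overlap for either gene. *Smad9*, the other BMP-type Smad, stayed at or below 1.71 in every library and did not pass (-0.71, adjusted p = 0.317, and -0.00 without ESC J/B replicate 1). *Smad4*, the common partner, was at 112 and 122 in B/J ESCs, 103 and 126 in J/B ESCs, 148 and 160.2 in B/J NPCs and 171 and 167 in J/B NPCs, a rise of 0.48 (SE 0.12, adjusted p = 0.00831). It was the smallest change of the 44 that passed.

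The inhibitory Smads moved in opposite directions. *Smad7*, induced by TGF-β and a brake on its receptors, was at 57.6 and 120 in B/J ESCs, 98.0 and 135 in J/B ESCs, 39.8 and 30.9 in B/J NPCs and 22.4 and 23.5 in J/B NPCs (log2 fold change -1.84, SE 0.25, adjusted p = 4.32e-04). *Smad6*, a brake on BMP receptors, was at 3.30 and 5.47 in B/J ESCs, 4.64 and 7.33 in J/B ESCs, 13.4 and 9.73 in B/J NPCs and 6.68 and 8.14 in J/B NPCs. Its stages overlapped in the J/B cross, its log2 fold change was 0.85 (SE 0.30, adjusted p = 0.0331), and it lost the call when any of 5 libraries was left out (adjusted p 0.0553 to 0.106).

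Promoter sequences are shown for 3 genes, *Smad6*, *Id2* and *Id4*, chosen because they hold short letters that Smad complexes are known to bind. The RefSeq table of GRCm38.p6 matched 40 of the 59 genes with 48 promoters, each of 250 bases before and 50 after a start. Both strands were searched for the palindrome GTCTAGAC, bound by Smad3 and Smad4, for GGCGCC, a GC-rich site of BMP Smads, and for AATNCACA, a site of Foxh1. Of the 48 promoters searched, which do not include that of *Smad7*, 1 held the palindrome, that of *Smad6*, as did 0.213% of all 32851 promoters of the table. GGCGCC was in 12 of the 48, and in 11.9% of all promoters. Its genes were *Acvr1b*, *Bmpr1a*, *Bmpr2*, *Chrd*, *Gdf1*, *Gdf10*, *Id2*, *Id4*, *Smad5*, *Smad9* and *Tgfbr1*. AATNCACA was in 1 of the 48, *Inhbc*, and in 3.60% of all. The *Nodal* promoter held none of these letters and is not shown. *Lefty1*, *Lefty2*, *Gdf3* and *Id1* had no entry in the table and were not searched. Capitals mark the match, and positions count from the start, with the base before it as -1. The *Smad6* stretch is at chr9:64022050-64022309, minus strand, and ends 10 bases after the start, with the match from -4 to 4. Those of *Id2* (chr12:25096093-25096342, minus strand, match from -231 to -226) and *Id4* (chr13:48260866-48261115, plus strand, match from -148 to -143) end at the start. A match says only that these letters are there.
Smad6: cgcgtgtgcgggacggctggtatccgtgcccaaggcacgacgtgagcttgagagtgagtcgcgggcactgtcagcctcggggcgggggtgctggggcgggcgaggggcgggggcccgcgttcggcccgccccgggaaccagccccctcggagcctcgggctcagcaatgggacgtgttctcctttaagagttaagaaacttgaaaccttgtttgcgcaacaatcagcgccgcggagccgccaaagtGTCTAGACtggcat
Id2: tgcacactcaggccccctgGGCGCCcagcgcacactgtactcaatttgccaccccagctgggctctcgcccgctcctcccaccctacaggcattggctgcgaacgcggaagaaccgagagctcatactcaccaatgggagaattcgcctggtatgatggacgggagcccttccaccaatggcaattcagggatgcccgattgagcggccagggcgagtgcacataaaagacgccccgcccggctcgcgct
Id4: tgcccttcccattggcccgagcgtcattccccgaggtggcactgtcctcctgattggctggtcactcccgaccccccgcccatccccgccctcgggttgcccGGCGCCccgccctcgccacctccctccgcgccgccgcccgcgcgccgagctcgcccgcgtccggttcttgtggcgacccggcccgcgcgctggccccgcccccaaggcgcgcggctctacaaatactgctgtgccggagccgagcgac

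Of the 4 *Id* genes, whose products block basic helix-loop-helix factors and hold back differentiation, 2 were lower in NPCs, 1 was higher and 1 did not pass. *Id3* was steady within each stage, at 113 and 103 normalised CPM in B/J ESCs and 94.8 and 108 in J/B ESCs, then 45.9 and 45.8 in B/J NPCs and 54.3 and 54.2 in J/B NPCs. It fell by 1.07 on the log2 scale (SE 0.12, adjusted p = 1.41e-04). *Id1* was at 34.4 and 76.4 in B/J ESCs, 33.3 and 91.6 in J/B ESCs, 24.7 and 28.8 in B/J NPCs and 21.0 and 30.8 in J/B NPCs. The replicate 1 ESC libraries lay just above the highest NPC library. The log2 fold change was -1.16 (SE 0.37, adjusted p = 0.0239), and it lost the call on library totals (-0.70, adjusted p = 0.144) and without any of 4 libraries (adjusted p 0.0653 to 0.0947). *Id2* was at 10.8 and 40.6 in B/J ESCs, 5.12 and 75.4 in J/B ESCs, 34.2 and 61.8 in B/J NPCs and 41.6 and 68.4 in J/B NPCs. The stages overlapped, and its log2 fold change of 0.67 (SE 0.74, adjusted p = 0.437) did not pass, but without ESC J/B replicate 2 it was 2.17 (adjusted p = 0.00934). *Id4*, known for its role in neural precursors, went from 4.51 and 9.62 in B/J and from 4.32 and 11.3 in J/B to 20.3 and 57.5 in B/J and to 58.1 and 133 in J/B (3.03, SE 0.51, adjusted p = 0.00124).

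Summed per kb, the *Id* genes stood at 74.1 to 136 in ESC libraries and 53.7 to 96.2 in NPC libraries, which overlap. *Id3* was 44.3 to 73.0% of that sum in ESCs and 31.5 to 47.7% in NPCs, *Id1* 22.3 to 38.02% and 17.7 to 25.9%, *Id2* 1.98 to 15.9% and 17.9 to 24.6%, and *Id4* 1.13 to 1.83% and 8.19 to 30.1%. The shares of *Id2* and *Id4* did not overlap between the stages.

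**Figure D5:**
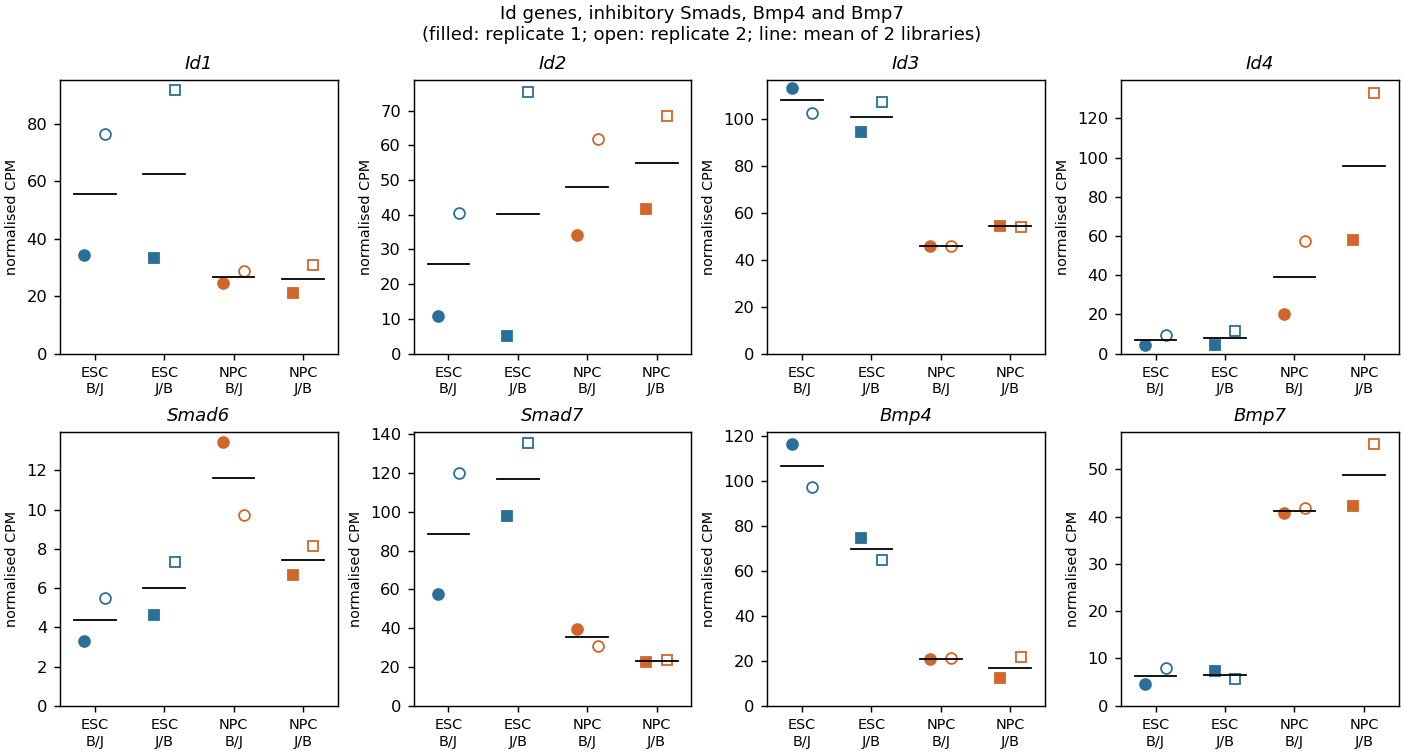
Normalised CPM of the *Id* genes, *Smad6*, *Smad7*, *Bmp4* and *Bmp7* in each library (filled: replicate 1, open: replicate 2) with the mean of 2 libraries as a line. In ESCs, *Id1*, *Id2*, *Id4* and *Smad7* are higher in replicate 2 of both crosses, and *Id3* and *Bmp4* are not.

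The libraries differed by replicate number in these genes. In ESCs, replicate 2 was above replicate 1 in B/J and J/B for *Id1* (2.22-fold and 2.75-fold), *Id2* (3.76-fold and 14.7-fold), *Id4* (2.13-fold and 2.61-fold), *Smad7* (2.08-fold and 1.38-fold), *Smad6* (1.66-fold and 1.58-fold), *Tgfb1* (3.81-fold and 2.24-fold), *Fst*, *Nog* and *Chrd*. The opposite order was seen for *Inhbb* and *Nodal* (1.54-fold and 1.37-fold higher in replicate 1). The mesoderm markers moved with these libraries, at 108 and 77.1 in replicate 2 against 12.4 and 21.8 normalised CPM in replicate 1, and the pluripotency markers the other way, at 6465 and 5584 against 8184 and 8577. The trophoblast (201 and 178 against 104 and 62.6) and neural precursor (135 and 123 against 113 and 61.6) lists were also higher in replicate 2, and the endothelium (51.2 and 60.3 against 84.4 and 130.3), neuron (384 and 326 against 467 and 346) and dorsal midline lists lower. In NPCs, replicate 2 was again above replicate 1 in both crosses for *Id4* (2.84-fold and 2.29-fold), *Id2* (1.81-fold and 1.65-fold) and *Id1* (1.16-fold and 1.47-fold). The neuron markers stood at 1199 and 1817 there against 345.8 and 910.4, and the dorsal midline markers were higher too, while the trophoblast, endothelium and mesoderm lists were lower. The part of these cells in the replicate difference was not tested, and no test between replicate numbers was made.

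Other genes of the pathway were read from a list of 50 symbols, of which 48 were in the files. Of these, 38 differed between the stages (79.2%), 26 higher and 12 lower, against the 69.4% of all genes given above. The largest falls were on the Nodal side and in a TGF-β co-receptor. *Tdgf1*, the Nodal co-receptor Cripto, was at 1176 and 916.5 normalised CPM in B/J ESCs and 1410 and 864 in J/B ESCs, and at 14.9 and 35.2 in B/J NPCs and 6.73 and 16.8 in J/B NPCs (log2 fold change -5.99, SE 0.45, adjusted p = 3.49e-05). *Foxh1*, a DNA-binding partner of Smad2 and Smad3, was at 86.6 and 61.9, 45.1 and 71.6, 3.87 and 5.11, and 7.83 and 2.20 in the same order (-3.79, SE 0.42, adjusted p = 1.46e-04, and -4.40 without NPC J/B replicate 1). *Eng*, the co-receptor endoglin, fell by 5.53 on the log2 scale (adjusted p = 1.29e-05), from 35.3 to 88.9 in ESC libraries to 0.743 to 2.36 in NPC libraries, although *Acvrl1*, with which it works in endothelium, rose. The secreted Nodal antagonists *Cer1* and *Dand5*, described after their values were seen, were not among the lower genes. *Cer1*, or cerberus, which also binds BMPs, rose from 0 to 0.299 in ESC libraries to 3.04 to 10.5 in NPC libraries (log2 fold change 7.87, SE 0.86, adjusted p = 2.53e-04). *Dand5* was at 1.71 to 3.49 in ESCs and 2.73 to 2.89 in NPCs (0.08, 95% interval -0.72 to 0.89, adjusted p = 0.837). Among the largest rises were BMP antagonists. *Sostdc1* had 2 counts in ESCs and 1992 in NPCs (ratio 647, 95% exact interval 179 to 5345), and *Chrdl2* 2 and 1945 (ratio 632, 175 to 5219), both ESC counts of *Chrdl2* being in J/B replicate 1. *Sostdc1* had 235 counts in NPC J/B replicate 1 and 549 to 648 in the other NPC libraries. In NPCs, *Sostdc1* was at 6.01 to 20.9 and *Chrdl2* at 12.8 to 16.9, above every ESC library.

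The stage changes were then read within each cross, which asks whether they appeared in both lines. Within B/J, 39 of the 53 genes differed (73.6%), 30 higher and 9 lower, against 55.8% of all genes (30.1% higher, 25.6% lower). Within J/B, 38 differed (71.7%), 29 higher and 9 lower, against 54.5% of all genes (29.1% higher, 25.3% lower). The same 36 genes passed in both, all in the same direction, with 3 passing only in B/J and 2 only in J/B, and 50 of the 53 estimates had the same sign. These counts were not made over all genes, so the 36 and the 50 cannot be set against a background. *Nodal* fell by 4.32 in B/J (adjusted p = 2.09e-04) and by 5.96 in J/B (adjusted p = 1.36e-04). *Bmp4* fell by 2.35 (adjusted p = 6.17e-04) and 2.03 (adjusted p = 0.00115). *Id1* passed in neither cross alone (-1.05, adjusted p = 0.123, and -1.27, adjusted p = 0.0740), nor did *Inhbb*. *Smad6* passed in B/J (1.40, adjusted p = 0.0243) and not in J/B (0.31, adjusted p = 0.555), and *Nog* in J/B (4.33, adjusted p = 0.00912) and not in B/J (2.19, adjusted p = 0.0803).

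The difference between the crosses was tested itself as the interaction of stage and cross, and no gene passed (0 of 53, with 0% of all genes called by edgeR's test). At an unadjusted p under 0.05, 4 of the 53 and 573 of all genes were found, and DESeq2 called 11 genes, none of them of the pathway. The 4 were *Nodal* (-1.65, 95% interval -2.73 to -0.56), *Tgfbr2* (-1.43, -2.83 to -0.03), *Fst* (2.55, 0.20 to 4.89) and *Gdf6*, which had at most 0.298 normalised CPM in any ESC library. None came near the threshold after adjustment. The interval reached less than 1 log2 unit to either side of the estimate for 13 of the 53 genes, so differences of that size could be missed for the other genes.

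Between the crosses within a stage, no pathway gene passed either. In ESCs, edgeR's test called 0 of the 53 and 0% of all genes, with 2 and 346 at an unadjusted p under 0.05 and 10 of all genes by DESeq2. The 2 were *Gdf6* and *Inhba*, both at no more than 0.384 normalised CPM in any ESC library. In NPCs it called 0 of the 53 and 1 of all genes (0.0061%), with 7 and 1050 at an unadjusted p under 0.05 and 70 of all genes by DESeq2, none of them of the pathway. *Nodal* (log2 difference of J/B from B/J -1.35, 95% interval -2.16 to -0.54), *Gdf3* (-1.65, -2.97 to -0.33), *Lefty1* (-1.08, -2.02 to -0.14) and *Lefty2* (-2.09, -3.81 to -0.36) were lower in J/B, as was *Tgfbr3* (-0.93, -1.66 to -0.20). *Fst* (2.31, 0.60 to 4.02) and *Bmp3* (1.56, 0.46 to 2.66) were higher. None of these 7 passed the adjustment (adjusted p 0.734 to 0.763). The interval reached less than 1 log2 unit to either side for 21 of the 53 genes in ESCs and 23 in NPCs.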

How the data were processed

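Poly(A) RNA of ESCs and day 12 NPCs was sequenced in 8 libraries, 2 for each stage and cross. Paired-end reads were mapped by the authors to mm39 with TopHat2 after SNP positions were masked. Proper pairs were kept above a minimum mapping quality of 20, and the authors counted reads per gene with HTSeq, which the submitters' processing notes name. Its version and strand setting were not given in the sources used here. The deposited values are raw counts per gene, summed over both alleles, for 26263 genes, and no deposited column of fold changes or p-values was used. The 5 closing entries for unassigned reads were left out of all totals. Reads without a gene were 5.76 to 10.9% of a library, and reads shared between genes 0.355 to 0.554%.

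Counts were fitted in R 4.3.3 with edgeR 4.0.16 (TMM factors, filterByExpr with a minimum count of 10, robust quasi-likelihood test, 4 group means). This left 16399 genes, over which the Benjamini-Hochberg adjustment was made, with a threshold of 0.05. Stages were compared over both crosses and in each cross, crosses were compared in each stage, and the difference of the stage changes between crosses was tested as an interaction. Levels are normalised CPM, which are counts divided by the library total times its TMM factor and scaled to CPM. Levels compared between genes were divided by the merged exon length of the gene in GENCODE vM39 (GRCm39). Where a stage held 1 to 3 counts, the ratio of pooled counts is given with a 95% exact interval. Intervals and the limit of 3 counts given to a count of 0 cover counting error only.

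Alternatives were library totals, RLE size factors, DESeq2 1.42.0 (Wald test), no low-count filter, a replicate block, leaving out each library in turn, and, added after seeing the data, a replicate block within each stage. A group left with 1 library took its spread from the rest. Genes given in every library were *Nodal*, *Lefty1*, *Lefty2*, *Bmp4*, *Id1* to *Id4*, *Smad6*, *Smad7*, *Nog*, *Chrd*, *Fst* and *Acvr1*, and, in each role group, the 3 largest rises and the 3 largest falls among called genes with a mean of at least 1 CPM. Of the other pathway genes, the 3 largest in each direction were chosen by the same rule, and 1 of these genes is not reported here. The members, the lists and this rule were chosen with earlier results of these data known. Marker lists of 10 genes each stood for pluripotency, neural precursors, neurons, trophoblast, fibroblasts, endoderm, mesoderm, endothelium, and dorsal midline with choroid plexus. The fits were tested on simulated counts before use. Promoter sequences came from the RefSeq table of GRCm38.p6, and were searched on both strands, with pathway genes on chromosome 18 left out.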

Additional observations from a re-analysis of the deposited data

Results flagged for a closer look

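In 6 of 80 groups of 4 libraries, the highest or the lowest library was flagged as standing apart from the other 3. The flag is Dixon's test, which sets the gap against the range of the 4 and flags about 1 group in 20 by chance. *Bmp4* was lowest in NPC J/B replicate 1, at 12.2 normalised CPM against 20.8 to 21.8 in the other NPC libraries. *Tgfb3* and *Bmp1* were highest in NPC B/J replicate 1, at 69.9 against 33.0 to 37.2 and at 113 against 76.2 to 80.2. *Gdf15* was highest in NPC B/J replicate 2, at 0.415 against 0.307 to 0.323, a gap of few reads, since 1 count was 0.0256 to 0.0323 normalised CPM in NPC libraries. In ESC J/B replicate 1, *Bmp3* was at 0.0533 and *Chrdl2* at 0.107, where the other ESC libraries had 0 counts. These flags rest on 1 and 2 counts, so the rate of 1 in 20 does not hold for them.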

How the results depend on the processing

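Of 59 genes followed through 14 alternatives (the 53 tested pathway genes and 6 other genes of the pathway), 48 kept their direction and their side of the threshold in all of them. Of the 826 results, 793 were unchanged in this way, 19 lost and 10 gained the call, and 4 reversed. These were 3 of *Fst* (main value -0.43, 0.03 on library totals, -0.75 to 0.17 when 1 library was left out) and 1 of *Bmp8a* (0.15, -0.10 to 0.53 when 1 library was left out). The genes that changed side were *Id1*, *Id2*, *Smad6*, *Inhbb*, *Tgfb1*, *Acvr1b*, *Bmp8b*, *Gdf5* and *Smad2*. Without a low-count filter, *Id1* (-1.15, adjusted p = 0.050) and *Inhbb* (2.54, adjusted p = 0.125) also lost the call. The count of pathway genes that differed between the stages was 41 to 45 when 1 library was left out. On library totals the median change over all genes (log2) rose from 0.17 to 0.65 and over the 53 pathway genes from 1.45 to 1.93, the share of higher calls went from 54.0 to 70.1% of all genes and from 77.3 to 80.4% of pathway genes, and the cause was not tested.

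The labels state no shared source for a replicate number, and with 2 libraries per group the numbers were not taken as pairs, so whether they mark a batch is unknown. The differences between replicates 2 and 1 were correlated across 14091 genes between the crosses within ESCs (0.63) and NPCs (0.47), and hardly between stages (0.04 to 0.09). With a replicate block, 12010 genes and 44 pathway genes differed between the stages. With a replicate block within each stage, these were 12845 and 47, and *Id2* (1.20, adjusted p = 0.00837), *Tgfb1* (0.98, adjusted p = 0.00309) and *Acvr1b* (0.45, adjusted p = 0.0210) passed.

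The count within J/B over all genes was 8935 and ranged from 5700 (without NPC J/B replicate 2) to 8475 when 1 library was left out. The interaction gave 0 genes, and 11 with DESeq2. Between crosses in ESCs, 0 genes passed, 10 with DESeq2 and 2 without the filter. In NPCs, 1 gene passed, 0 on library totals, 70 with DESeq2, 5 without the filter, 0 with a replicate block, 4 with a replicate block within each stage, and 0 to 1 when 1 library was left out. Depth limits the genes under the filter, where 1 read changes the value.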
